A study of Rattus norvegicus with 27 samples.

Results

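The genes described here are receptors, ligands and nuclear targets of the Notch pathway, taken by name from the mRNA table of cultured rat Schwann cells: the receptors *Notch1*, *Notch2* and *Notch3*, the ligands *Jag1*, *Jag2* and *Dll1*, the DNA-binding factor *Rbpj*, and the target genes *Hes1*, *Hey1* and *Hey2*. Of these 10 genes, 9 have a row among the 17315 of the table, and *Jag2* was not analysed here. Of the 9, 8 passed the filter on low counts and were tested, and *Dll1* did not pass. Schwann cells are the glia of peripheral nerves, and the cells were a purchased primary culture of rat Schwann cells. Undifferentiated cells had no dibutyryl cyclic AMP (dbcAMP), a form of cyclic AMP that enters cells. Differentiated cells were given 1 mM of it over 72 h in medium with 1% exosome-depleted serum, a treatment that stands in for the signal that starts myelination. Dedifferentiated cells received the same dbcAMP treatment and then 72 h without it, in a complete medium with 10% serum, neuregulin and forskolin. Forskolin activates the enzyme that makes cyclic AMP, so this last stage changed dbcAMP, serum, growth factor and forskolin together, and the labels do not give the medium of the undifferentiated cells at harvest. Each stage had 3 replicates, 9 libraries in all. The labels call them biological replicates without saying whether they came from separate animals, so p-values measure the spread among these cultures.

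Notch receptors are single-pass membrane proteins that bind ligands of the Jagged and Delta families on a neighbouring cell. Ligand binding lets ADAM proteases and then the gamma-secretase complex cut the receptor, and the freed intracellular domain moves to the nucleus and joins RBPJ, which turns from a repressor into an activator of genes such as those of the Hes and Hey families. In the Schwann cell lineage Notch is known for promoting the step from precursor to immature Schwann cell and for opposing myelination, and cyclic AMP is the classical signal for driving myelin genes in culture.

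RBPJ binds DNA at a short core, and promoters that hold it are shown here for a Notch target with no called change, a target that fell under dbcAMP and a pathway gene that fell with it. The stretches are the 250 bases before the start of *Hes1* (GRCr8 chr11:84213046-84213295, minus strand), *Hey2* (GRCr8 chr1:28640850-28641099, plus strand) and *Lfng* (GRCr8 chr12:19152919-19153168, minus strand), from RefSeq and written 5′ to 3′ along the gene. *Lfng*, which encodes a sugar transferase that modifies Notch receptors, belongs to the wider pathway described further on. Capitals mark each TGGGAA, the RBPJ core, or its reverse complement.
Hes1: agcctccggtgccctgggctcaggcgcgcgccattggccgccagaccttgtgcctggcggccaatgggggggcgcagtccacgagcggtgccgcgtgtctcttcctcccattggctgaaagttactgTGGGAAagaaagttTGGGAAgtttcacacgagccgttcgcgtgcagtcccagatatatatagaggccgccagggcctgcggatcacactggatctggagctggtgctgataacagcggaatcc
Hey2: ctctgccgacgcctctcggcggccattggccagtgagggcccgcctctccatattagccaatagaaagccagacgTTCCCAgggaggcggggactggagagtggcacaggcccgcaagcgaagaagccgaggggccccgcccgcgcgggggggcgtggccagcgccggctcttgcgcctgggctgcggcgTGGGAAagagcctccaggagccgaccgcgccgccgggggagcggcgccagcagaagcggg
Lfng: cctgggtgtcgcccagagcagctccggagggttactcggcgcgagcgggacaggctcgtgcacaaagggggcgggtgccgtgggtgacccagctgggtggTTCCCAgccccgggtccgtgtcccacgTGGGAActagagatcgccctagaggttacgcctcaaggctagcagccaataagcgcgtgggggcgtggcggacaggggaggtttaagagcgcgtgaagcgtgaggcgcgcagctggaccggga

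Each of these promoters held 2 copies of the core, of which 1 extended to GTGGGAA. In *Hes1* both exact copies lay on the gene's own strand, with first letters 123 and 109 bases before the start. Only the exact letters were searched. A site that differs from them is not marked, so the direction of any pair of bound sites cannot be read from these copies. In *Hey2* and *Lfng* the copies lay on opposite strands. Searched on both strands, TGGGAA occurred in 22.1% and GTGGGAA in 5.27% of 33469 RefSeq promoter windows of 250 bases, so a single core is common. *Dll1* also held 2 cores, the 2 promoter entries of *Rbpj* held 1 and 2, and no TGGGAA was found in this window of *Notch1*, *Notch2*, *Notch3*, *Jag1*, *Heyl* or *Nrarp*. Of the 9 members, 8 have a promoter entry, and *Hey1* has none. A match says only that these letters are present.

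A second set of letters was searched because the treatment was a cyclic AMP analogue. The full cyclic AMP response element, TGACGTCA, was in 1.59% of windows and in none of the 8 members with an entry. Its short form TGACG was in 18.2% of windows, and *Notch3*, *Jag1* and *Dll1* had 1 copy each, as did *Nrarp*, a small Notch feedback inhibitor of the wider pathway. The stretches shown are GRCr8 chr7:11834745-11834803, minus strand, for *Notch3*, chr3:28390645-28390703, plus strand, for *Nrarp*, and chr3:144894895-144894953, minus strand, for *Jag1*, chosen because the first pair rose under dbcAMP and the last fell, with the reverse complement of TGACG in capitals.
Notch3: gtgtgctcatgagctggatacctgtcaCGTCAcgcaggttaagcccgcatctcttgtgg
Nrarp: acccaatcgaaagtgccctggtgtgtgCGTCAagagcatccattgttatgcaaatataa
Jag1: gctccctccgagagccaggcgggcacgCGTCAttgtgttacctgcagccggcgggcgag

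Libraries held 10058735 to 16212278 estimated counts, and values are given as CPM, the count scaled to a common library total. A level of 3 counts corresponds to 0.185 to 0.298 CPM. The stage labels were checked on *Egr2*, a transcription factor of myelination, whose mean over undifferentiated libraries was 6.01 ± 6.98 CPM, rising to 703 ± 84.4 CPM with dbcAMP and standing at 129 ± 40.7 CPM after its removal (SD, n = 3). All 7 Schwann cell markers in the table were above 3 counts in every library, and their summed level was 8242 to 9425, 8445 to 11076 and 18542 to 21433 CPM over the stages in that order. The replicates numbered 3 were sequenced in another project than those numbered 1 and 2. The tests used edgeR's quasi-likelihood fit over all 10372 genes that passed the filter, with Benjamini-Hochberg adjusted p, and a gene was called at an adjusted p under 0.05. Log2 changes include edgeR's correction for library composition (TMM), which the CPM values do not.

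Among the receptors, *Notch1* and *Notch3* were higher under dbcAMP and fell back after withdrawal, while *Notch2* did not pass the test in any comparison. *Notch1* is the receptor most studied in Schwann cells. In undifferentiated libraries 1, 2 and 3 it measured 525, 417 and 387 CPM. In differentiated libraries it measured 825, 724 and 654 CPM, and in dedifferentiated libraries 411, 343 and 343 CPM. Every differentiated library was above every other library, and the dedifferentiated range overlapped the undifferentiated. The rise was 0.67 on the log2 scale (SE 0.15; edgeR adjusted p = 0.0026), a fold of 1.59, and on withdrawal it fell by 0.99 log2 units (SE 0.15; edgeR adjusted p = 0.000335). Dedifferentiated against undifferentiated cells differed by -0.33 (edgeR adjusted p = 0.121).

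*Notch2*, a second receptor with a closely related structure, measured 298, 365 and 324 CPM in undifferentiated, 285, 317 and 278 CPM in differentiated and 347, 227 and 223 CPM in dedifferentiated libraries. The ranges overlapped in each pair of stages, and dedifferentiated library 1 stood above the other 2 of its stage. The log2 change under dbcAMP was -0.22, with a 95% interval of -0.58 to 0.13 (edgeR adjusted p = 0.25), and on withdrawal it was -0.13, with an interval of -0.48 to 0.23 (edgeR adjusted p = 0.532). Without dedifferentiated replicate 1, *Notch2* was called lower in all 3 comparisons, by -0.26, -0.36 and -0.62 in log2 units (edgeR adjusted p = 0.0262, 0.0149 and 0.00162).

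*Notch3*, a receptor best known from vascular mural cells, was present at a low level. Its counts were 21, 9 and 9 in undifferentiated, 49, 46 and 47 in differentiated and 11, 10 and 17 in dedifferentiated libraries, or 1.69, 0.865 and 0.589 CPM, then 3.61, 3.55 and 2.9 CPM, then 0.933, 0.994 and 1.28 CPM. The differentiated libraries lay above all others, and those of the other stages overlapped. The rise was 1.61 on the log2 scale (SE 0.39; edgeR adjusted p = 0.00477), and withdrawal brought -1.62 (SE 0.39; edgeR adjusted p = 0.00682). Within the project of replicates 1 and 2 the rise was 1.38 and missed the threshold (edgeR adjusted p = 0.0513), and between the single libraries of the other project the log2 CPM differed by 2 (no test). After withdrawal the level was as in undifferentiated cells, with a difference of -0.01 and a wide interval from -0.99 to 0.97 on the log2 scale (edgeR adjusted p = 0.991).

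Markers of mural cells were set beside *Notch3* because that receptor marks them. The summed level of the 7 mural markers was 124 to 154 CPM in undifferentiated, 542 to 810 in differentiated and 323 to 346 in dedifferentiated libraries. Nearly all of this was *Pdgfrb*, a growth factor receptor, at 136 ± 16.5, 674 ± 134 and 321 ± 10.5 CPM (SD, n = 3). Of the other mural markers, *Rgs5* and *Kcnj8* had 0 counts in every library, *Des* and *Abcc9* averaged at most 0.107 CPM at any stage, *Myh11* averaged 4.19, 3.91 and 3.35 CPM, and *Acta2* averaged 3.16, 0.199 and 7.3 CPM over the stages in order. The summed 7 endothelial markers measured 1.29 to 4.13, 8.33 to 10.6 and 12.2 to 23 CPM, with *Cdh5* at 0 throughout. The summed 7 macrophage markers stayed at 0.322 to 5.09 CPM, with *Adgre1*, *Aif1* and *C1qa* at 0 throughout and *Cd68* averaging 0.724, 3.41 and 1.36 CPM. The 6 fibroblast markers in the table summed to 15766 to 19721, 5425 to 7703 and 9916 to 12871 CPM, nearly all of it *Col1a1*, which Schwann cells also express. *Col3a1* averaged 53.2, 92 and 147 CPM over the stages in order. *Lum* was at 0, and *Dcn*, *Pdgfra* and *Thy1* averaged at most 0.993 CPM at any stage. The part of cells expressing *Pdgfrb*, *Col1a1*, *Tek* or *Vwf* in the members' changes was not tested. In bulk RNA, fewer cells of a type and less RNA per cell cannot be told apart.

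The ligand *Jag1* was lower under dbcAMP and was still low after withdrawal. *Jag1* encodes Jagged1, a membrane ligand that activates Notch on adjacent cells. It measured 130, 161 and 156 CPM in undifferentiated, 66.5, 72.5 and 84.3 CPM in differentiated and 45.4, 80.7 and 84.1 CPM in dedifferentiated libraries. Every undifferentiated library was above every library of the other stages, and the latter overlapped each other, with dedifferentiated library 1 the lowest of all 9. The change under dbcAMP was -1.06 on the log2 scale (SE 0.19; edgeR adjusted p = 0.000713). Against undifferentiated cells the dedifferentiated cells differed by -1.14 (SE 0.19; edgeR adjusted p = 0.00138). Between dedifferentiated and differentiated cells the difference was -0.08, with a 95% interval of -0.5 to 0.35 (edgeR adjusted p = 0.767).

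*Dll1*, which encodes the Delta ligand best known from neural and somite development, was close to the limit of detection. Its counts were 1, 1 and 2 in undifferentiated, 2, 6 and 4 in differentiated and 4, 6 and 4 in dedifferentiated libraries. Summed over a stage these were 4, 12 and 14 counts, with exact Poisson 95% intervals of 1.09 to 10.2, 6.2 to 21 and 7.65 to 23.5 that cover counting error only. In CPM every differentiated and every dedifferentiated library lay above every undifferentiated one, on these few counts, and the differentiated and dedifferentiated libraries overlapped. With no filter on low counts *Dll1* had edgeR adjusted p of 0.259, 0.599 and 0.158 for differentiated against undifferentiated, dedifferentiated against differentiated and dedifferentiated against undifferentiated cells.

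*Rbpj*, the factor through which the cut receptor reaches its targets, differed little between stages. It measured 114, 95.2 and 100 CPM in undifferentiated, 94.1, 87.5 and 88.3 CPM in differentiated and 101, 83.9 and 90.9 CPM in dedifferentiated libraries. The differentiated libraries lay just below the undifferentiated, with a gap of 94.1 to 95.2 CPM between them. The log2 change was -0.26 (SE 0.1; edgeR adjusted p = 0.0494), and this call was lost in 10 of 20 alternative analyses, among them library size without the composition correction (edgeR adjusted p = 0.0958). Leaving out undifferentiated replicate 1 or 3, differentiated replicate 2 or 3 or dedifferentiated replicate 3 also ended it (edgeR adjusted p up to 0.176). On withdrawal the difference was 0.05 (edgeR adjusted p = 0.743).

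**Figure D1:**
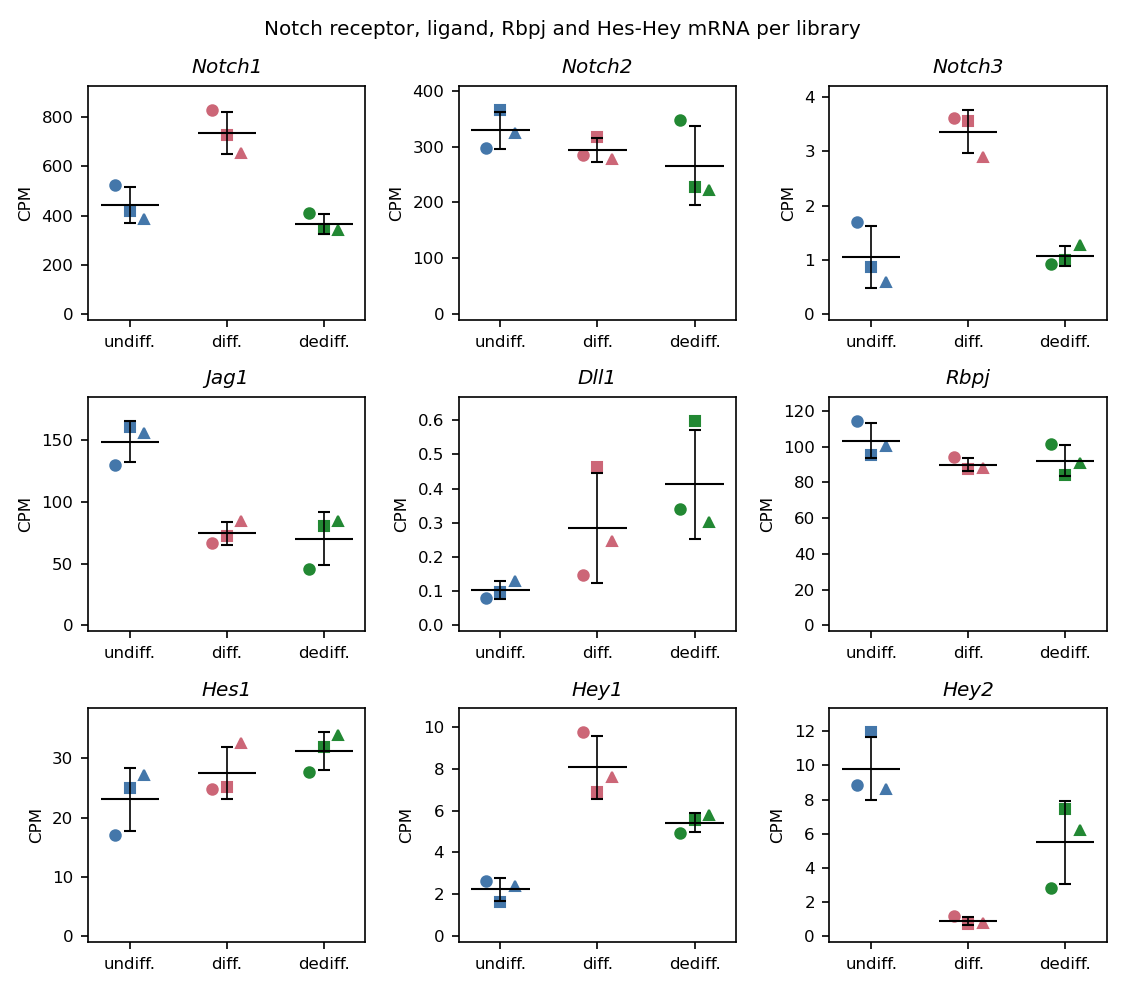
CPM of the 9 genes in each library (circle, square and triangle for replicates 1, 2 and 3), with the stage mean as a horizontal line and the SD as an error bar (n = 3); each panel has its own axis from 0. *Notch1* and *Notch3* peak in differentiated cells, *Jag1* is high in undifferentiated cells alone, and *Hey1* and *Hey2* run in opposite directions.

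The Hes and Hey genes encode basic helix-loop-helix repressors and are the usual readout of Notch activity, and here they did not move together. *Hes1* did not pass the test in any comparison, *Hey1* rose under dbcAMP, and *Hey2* fell. *Hes1* measured 17.1, 25 and 27.2 CPM in undifferentiated, 24.8, 25.1 and 32.5 CPM in differentiated and 27.7, 31.9 and 33.9 CPM in dedifferentiated libraries. The dedifferentiated libraries lay just above the undifferentiated, and the other pairs of stages overlapped. The log2 change was 0.19 under dbcAMP, with a 95% interval of -0.17 to 0.56 (edgeR adjusted p = 0.337), and dedifferentiated against undifferentiated cells differed by 0.39 (edgeR adjusted p = 0.106).

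*Hey1* had 33, 17 and 37 counts in undifferentiated, 132, 89 and 123 in differentiated and 58, 56 and 77 in dedifferentiated libraries, or 2.66, 1.63 and 2.42 CPM, then 9.72, 6.87 and 7.59 CPM, then 4.92, 5.57 and 5.79 CPM. No library of one stage overlapped another stage, and the dedifferentiated libraries lay between the others. The rise under dbcAMP was 1.77 on the log2 scale (SE 0.24; edgeR adjusted p = 0.000109), a fold of 3.42. Dedifferentiated cells were still above undifferentiated cells by 1.21 (SE 0.25; edgeR adjusted p = 0.00441). Within the project of replicates 1 and 2 that difference was 1.21 and missed the threshold (edgeR adjusted p = 0.0843), and between the single libraries of the other project the log2 CPM differed by 1.18 (no test). On withdrawal the log2 change was -0.56 (SE 0.23) and did not pass (edgeR adjusted p = 0.0656).

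*Hey2* had 110, 124 and 132 counts in undifferentiated, 16, 9 and 13 in differentiated and 33, 75 and 83 in dedifferentiated libraries, or 8.86, 11.9 and 8.64 CPM, then 1.18, 0.695 and 0.802 CPM, then 2.8, 7.46 and 6.24 CPM. The 3 stages did not overlap, although dedifferentiated library 1 lay far below the other 2 of its stage, as it did for *Jag1*. The change under dbcAMP was -3.5 on the log2 scale (SE 0.39; edgeR adjusted p = 2.03e-05), an 11.3-fold lower level and the furthest move among the 8 tested members. On withdrawal *Hey2* rose by 2.62 log2 units (SE 0.39; edgeR adjusted p = 0.000361). Between dedifferentiated and undifferentiated cells the log2 change was -0.89 (SE 0.32), which did not pass (edgeR adjusted p = 0.0635). DESeq2's Wald test called this last difference (adjusted p = 0.0337), as did the fit without dedifferentiated replicate 2 (edgeR adjusted p = 0.0413).

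**Figure D2:**
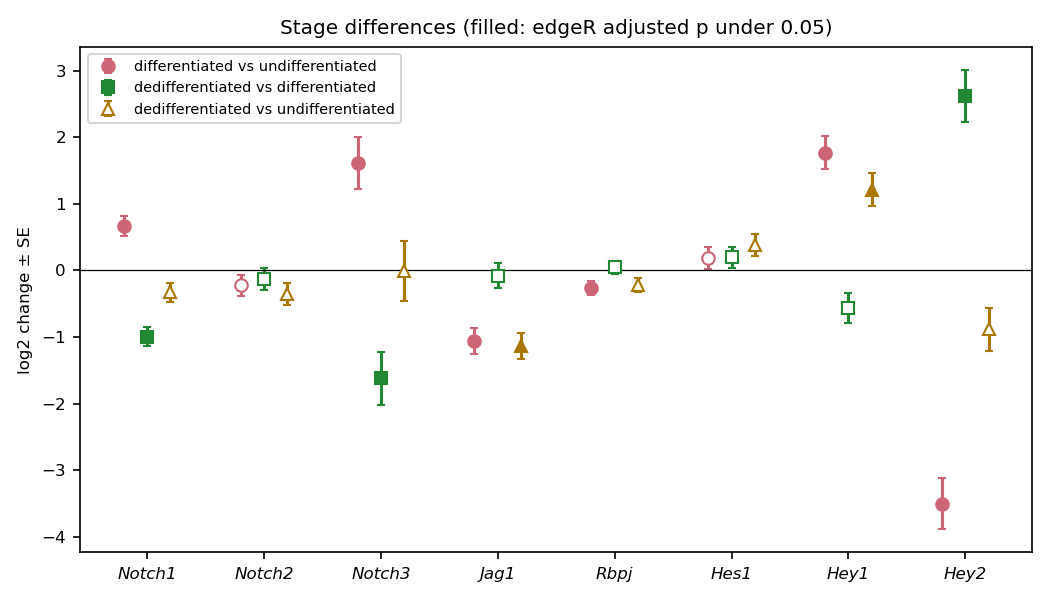
Log2 change ± SE of the 8 tested genes in the 3 stage comparisons from the edgeR fit, with filled symbols for an adjusted p under 0.05. *Hey2* moves furthest, by -3.5 and then 2.62, *Notch1* and *Notch3* go up and come down again, and *Jag1* and *Hey1* are also called between dedifferentiated and undifferentiated cells, by -1.14 and 1.21.

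Ratios of counts within a library do not depend on library size or on how libraries are scaled. They are not corrected for gene length, so only their change between stages is read. The ratio of *Hey1* to *Hey2* was 0.3, 0.137 and 0.28 in undifferentiated, 8.25, 9.89 and 9.46 in differentiated and 1.76, 0.747 and 0.928 in dedifferentiated libraries. No 2 stages overlapped, and the mean went from 0.239 ± 0.0889 to 9.2 ± 0.85 and then to 1.14 ± 0.539 (SD, n = 3). The ratio of *Notch1* to *Notch2* was 1.37 ± 0.343, 2.51 ± 0.333 and 1.41 ± 0.197 (SD, n = 3), with the differentiated libraries above all others. The ratio of *Notch1* to *Jag1*, receptor to ligand, was 3.04 ± 0.862, 10 ± 2.33 and 5.8 ± 2.83 (SD, n = 3). For this ratio the lowest dedifferentiated library, at 4.08, lay just above the highest undifferentiated one, at 4.03, and dedifferentiated library 1, at 9.07, reached into the differentiated range.

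**Figure D3:**
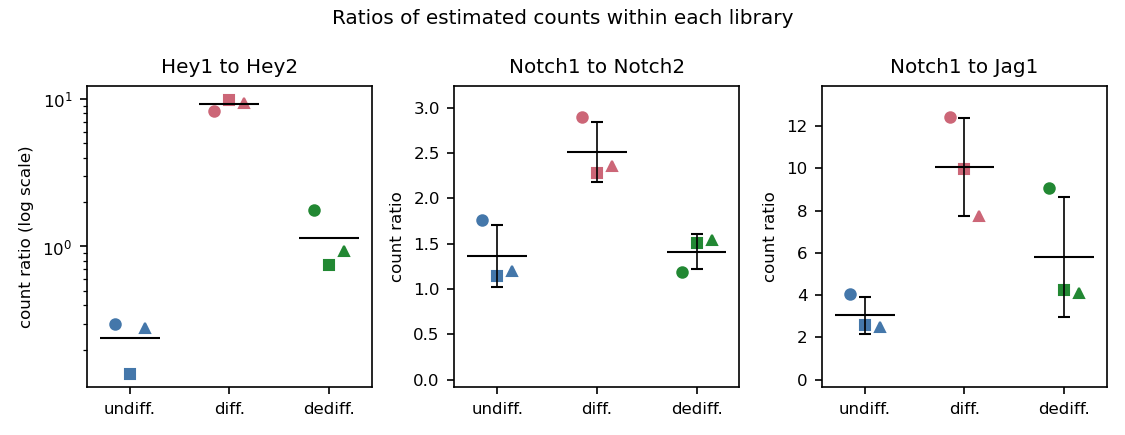
Ratios of estimated counts within each library by stage, with symbols for replicates 1 to 3, the mean as a horizontal line and, on the linear panels, the SD as an error bar (n = 3); the *Hey1* to *Hey2* panel has a log axis. The *Hey1* to *Hey2* ratio lies below 1 in undifferentiated cells, above 8 in differentiated cells and near 1 in dedifferentiated cells.

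Counts of called members are read against all genes tested, since much of the transcriptome differed between stages. The parts of dbcAMP and of the medium in these differences cannot be told apart. For differentiated against undifferentiated cells 6 of 8 members were called, 3 higher and 3 lower, where 59.6% of all 10372 genes were called, 31.7% higher and 27.9% lower. The members' median log2 change was -0.02, against 0.05 over all genes. Members called with an absolute log2 change above 1 numbered 4 of 8, where 24.8% of all genes met that rule, and libraries did not overlap for 6 of 8, where 66.3% of all genes did not. On withdrawal 3 of 8 were called, 1 higher and 2 lower, against 46.4% of all genes, 23.2% higher and 23.2% lower, with a median of -0.1 for the members and -0.01 for all genes. There 2 of 8 members were called with an absolute log2 change above 1, against 15.6% of all genes, and libraries did not overlap for 4 of 8, against 58.5%. Between dedifferentiated and undifferentiated cells 2 of 8 were called, 1 higher and 1 lower, against 29.4% of all genes, 16.1% higher and 13.3% lower, with medians of -0.27 and 0.02. Here 2 of 8 had an absolute log2 change above 1, against 9.56% of all genes, and libraries did not overlap for 4 of 8, against 43.9%. Without dedifferentiated replicate 1 the count called in this comparison was 4 of 8, and the share of all genes called in that fit is not given here. A difference between any stages was called for 5 of 8, *Notch1*, *Notch3*, *Jag1*, *Hey1* and *Hey2*, against 63.5% of all genes. The 3 comparisons share libraries and are not independent.

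The wider pathway was taken as 7 lists of other genes, 75 in all, of which 64 have a row and 54 were tested. Under dbcAMP 12 were called higher and 26 lower, where 31.7% and 27.9% of all genes were. On withdrawal 19 were called higher and 9 lower, where 23.2% of all genes were called in each direction. Between dedifferentiated and undifferentiated cells 7 were called higher and 11 lower, where 16.1% and 13.3% of all genes were. The median log2 changes were -0.25, 0.08 and -0.09. Within the project of replicates 1 and 2 the counts called fell from 38, 28 and 18 to 24, 17 and 5. That fit had fewer libraries, and its share of all genes called is not given here. The drop is therefore not read as a result about these genes.

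Under dbcAMP the widest moves among the 54 tested genes of the wider pathway were those of a further Hey gene and of a feedback inhibitor. Of the 10 other Hes-Hey family members and targets, 4 were tested, and *Heyl* and *Nrarp* were called in every comparison. *Heyl*, a relative of *Hey1* and *Hey2*, had 1030, 622 and 864 counts in undifferentiated, 1, 0 and 2 in differentiated and 348, 169 and 242 in dedifferentiated libraries. It was thus nearly absent under dbcAMP, with 3 counts over 3 libraries, and came back in part. Undifferentiated cells held 941 times the level of differentiated cells, with a 95% interval of 322 to 4566, and dedifferentiated cells 308 times, with an interval of 105 to 1495, both for counting error only. Dedifferentiated against undifferentiated cells differed by -1.68 on the log2 scale (SE 0.24; edgeR adjusted p = 0.000408), so *Heyl* and *Hey2* shared the order of stages.

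*Nrarp*, which encodes an ankyrin repeat protein that dampens Notch and is itself a Notch target, did the reverse. It measured 2.01, 1.06 and 1.64 CPM in undifferentiated, 60.8, 26.2 and 41.3 CPM in differentiated and 5.76, 4.37 and 5.79 CPM in dedifferentiated libraries. No stages overlapped, and differentiated library 2 was the lowest of its stage, as it was for *Hey1*. The log2 changes were 4.68 under dbcAMP (SE 0.35; edgeR adjusted p = 1.14e-06), -2.99 on withdrawal (SE 0.3; edgeR adjusted p = 2.52e-05) and 1.69 between dedifferentiated and undifferentiated cells (SE 0.38; edgeR adjusted p = 0.00742). The last call was lost within the project of replicates 1 and 2 (edgeR adjusted p = 0.0995). Under dbcAMP *Nrarp* thus rose, as did *Hey1*, *Notch1* and *Notch3*, and *Heyl* fell, as did *Hey2*. The other tested members of this list, *Hes6* and *Bhlhe40*, were not called in any comparison.

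The 9 genes of receptor processing were all tested. Under dbcAMP 7 were called lower and 1 higher, and on withdrawal 8 were called higher and 1 lower, with medians of -0.39 and 0.36, where 59.6% and 46.4% of all genes were called. Within the project of replicates 1 and 2 the calls numbered 4 of 9 in each of these comparisons. Of the gamma-secretase genes 2 of 6 were called there in each. The share of all genes called in that smaller fit is not given here. *Furin*, the protease that cuts the receptor on its way to the surface, measured 445, 418 and 408 CPM in undifferentiated, 127, 128 and 113 CPM in differentiated and 257, 275 and 291 CPM in dedifferentiated libraries. *Adam17*, a sheddase that can cut Notch, went the other way at 126, 161 and 166 CPM, then 596, 625 and 626 CPM, then 213, 201 and 220 CPM. The stages did not overlap for either gene. The log2 changes under dbcAMP were -1.85 for *Furin* and 1.97 for *Adam17* (edgeR adjusted p = 5.3e-08 and 5.49e-08). *Adam10*, the main sheddase of ligand-bound Notch, did not pass under dbcAMP, with a log2 change of 0.01 (edgeR adjusted p = 0.956). On withdrawal it was called higher by 0.31 (edgeR adjusted p = 0.0463), a call lost in 12 of 19 alternatives, among them the fits without undifferentiated replicate 2 or 3, differentiated replicate 1 or 3 or dedifferentiated replicate 1 or 3 (edgeR adjusted p up to 0.157).

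Glycosylation sets which ligand a Notch receptor answers. Of 5 tested genes, 1 was called higher and 2 lower under dbcAMP, and 1 higher and 1 lower on withdrawal, which is near the 59.6% and 46.4% of all genes called. *Lfng*, the fringe enzyme whose promoter is shown above, measured 262, 313 and 277 CPM in undifferentiated, 78.6, 56.4 and 59.9 CPM in differentiated and 192, 215 and 213 CPM in dedifferentiated libraries, with no overlap between stages. Its log2 change was -2.19 under dbcAMP (SE 0.13; edgeR adjusted p = 2.35e-07) and 1.68 on withdrawal (SE 0.13; edgeR adjusted p = 4.14e-06). *Poglut1*, which adds glucose to the receptor's EGF repeats, changed by 0.9 and then -0.89 in log2 units (edgeR adjusted p = 1.45e-05 and 3.55e-05).

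**Figure D4:**
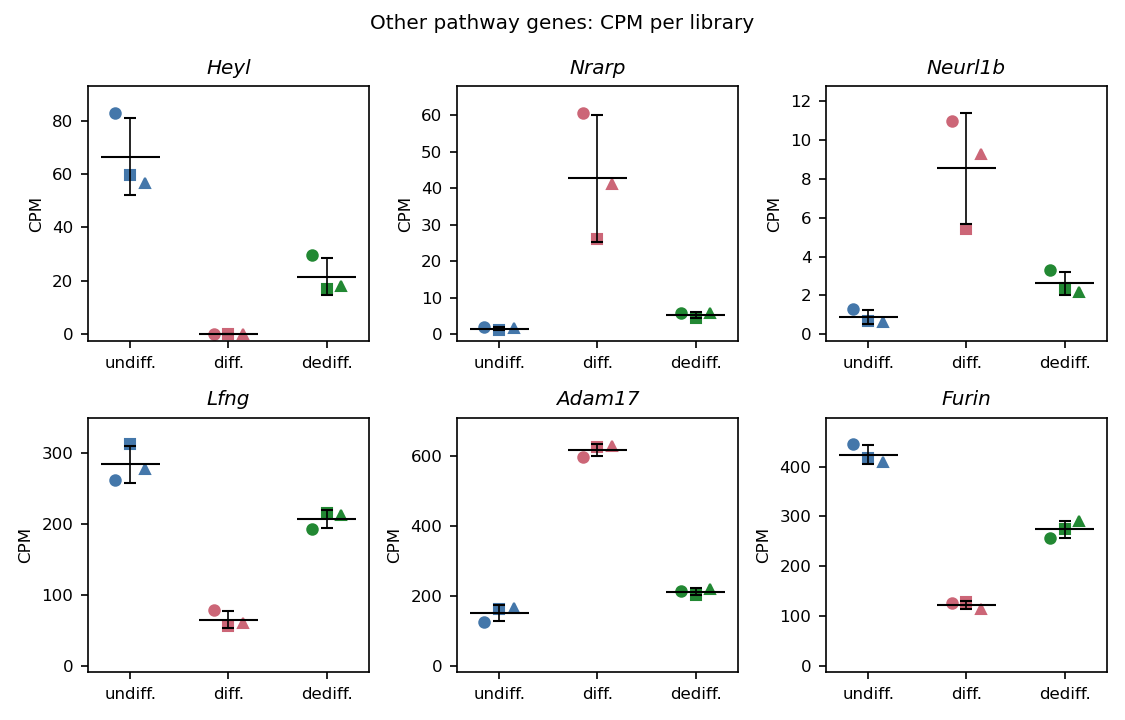
CPM per library of 6 other pathway genes, with symbols for replicates 1 to 3, the stage mean as a horizontal line and the SD as an error bar (n = 3). *Nrarp*, *Neurl1b* and *Adam17* peak in differentiated cells, where *Heyl*, *Lfng* and *Furin* are lowest.

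Ubiquitin ligases and adaptors control how ligand and receptor are taken up from the membrane. Of 15 tested genes, 4 were called higher and 7 lower under dbcAMP, and 4 higher and 3 lower on withdrawal, where 59.6% and 46.4% of all genes were called. *Neurl1b*, a ligase acting on Notch ligands, had 16, 7 and 10 counts in undifferentiated, 149, 70 and 151 in differentiated and 39, 24 and 29 in dedifferentiated libraries. Its log2 change under dbcAMP was 3.23 (SE 0.39; edgeR adjusted p = 3.86e-05) and on withdrawal -1.69, the latter lost within the project of replicates 1 and 2 (edgeR adjusted p = 0.0567). *Numbl*, a relative of the Notch inhibitor Numb, changed by -2.09 and then 1.95 (edgeR adjusted p = 3.04e-08 and 1.58e-07), while *Numb* itself changed by 0.75 and then -0.54 (edgeR adjusted p = 0.000475 and 0.00569), the latter also lost within that project (edgeR adjusted p = 0.0966). *Neurl1*, at 3.28 ± 0.759, 1.55 ± 0.772 and 1.34 ± 0.721 CPM (SD, n = 3), was called lower under dbcAMP (edgeR adjusted p = 0.0445), a call lost in 7 of 18 alternatives, with library size alone, with undifferentiated replicate 1 or 3, differentiated replicate 2 or 3 or dedifferentiated replicate 3 left out, and within the project of replicates 1 and 2 (edgeR adjusted p up to 0.325).

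RBPJ works with nuclear coactivators and corepressors. Among 6 tested coactivators and turnover factors, 3 were called higher and 1 lower under dbcAMP (59.6% of all genes called), and on withdrawal 1 was called lower (46.4%). *Maml1*, which encodes a Mastermind protein that completes the activating complex, changed by -0.45 in log2 units under dbcAMP (edgeR adjusted p = 0.00143). *Maml3*, which encodes a related Mastermind protein, changed by 0.82 (edgeR adjusted p = 0.0012), and *Kat2a*, a histone acetyltransferase, by 0.78 (edgeR adjusted p = 1.02e-05). Among 12 tested corepressors, 2 were called higher and 6 lower under dbcAMP and 4 higher and 1 lower on withdrawal. Of all genes 31.7% were called higher and 27.9% lower under dbcAMP, and 23.2% each way on withdrawal. *Tle4*, a Groucho-type corepressor that Hes proteins recruit, measured 58.2 ± 3.04, 17.2 ± 1.49 and 42.1 ± 11 CPM (SD, n = 3), or log2 changes of -1.82 under dbcAMP and 1.3 on withdrawal (edgeR adjusted p = 5.48e-06 and 0.000124). Its relative *Tle1* also fell under dbcAMP, by -0.46, while *Tle2* and *Tle3* rose, by 0.42 and 0.46 (edgeR adjusted p = 0.0151, 0.0188 and 0.00632). The calls of *Tle1* and *Tle2* were lost within the project of replicates 1 and 2. That of *Tle1* was also lost without differentiated replicate 3, and that of *Tle2* without undifferentiated replicate 3 or differentiated replicate 1. On withdrawal *Tle3* was called lower, by -0.48 (edgeR adjusted p = 0.00682), and *Tle1* and *Tle2* were not called. *Ctbp1* changed by -0.53 under dbcAMP (edgeR adjusted p = 5.94e-05).

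Of the other receptors and ligands, 3 of 9 were tested. *Notch4* was not called in any comparison, with a log2 change of 0.42 under dbcAMP (edgeR adjusted p = 0.246). *Mfap2* and *Mfap5* encode microfibril proteins that can bind Jagged1 and Notch1. *Mfap5* measured 6.41 ± 3.69, 0.8 ± 0.538 and 7.44 ± 4.62 CPM (SD, n = 3), or log2 changes of -2.99 under dbcAMP and 3.16 on withdrawal (edgeR adjusted p = 0.00366 and 0.00392). *Mfap2* went from 2.7 ± 0.442 to 1.22 ± 0.555 and 0.352 ± 0.218 CPM (SD, n = 3) and was lower after withdrawal than in undifferentiated cells by a log2 change of -2.9 (edgeR adjusted p = 0.00137). Its dedifferentiated libraries held only 3, 2 and 8 counts. The calls of *Mfap2* as lower under dbcAMP and on withdrawal were lost in 5 and 3 of 18 alternatives.

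**Figure D5:**
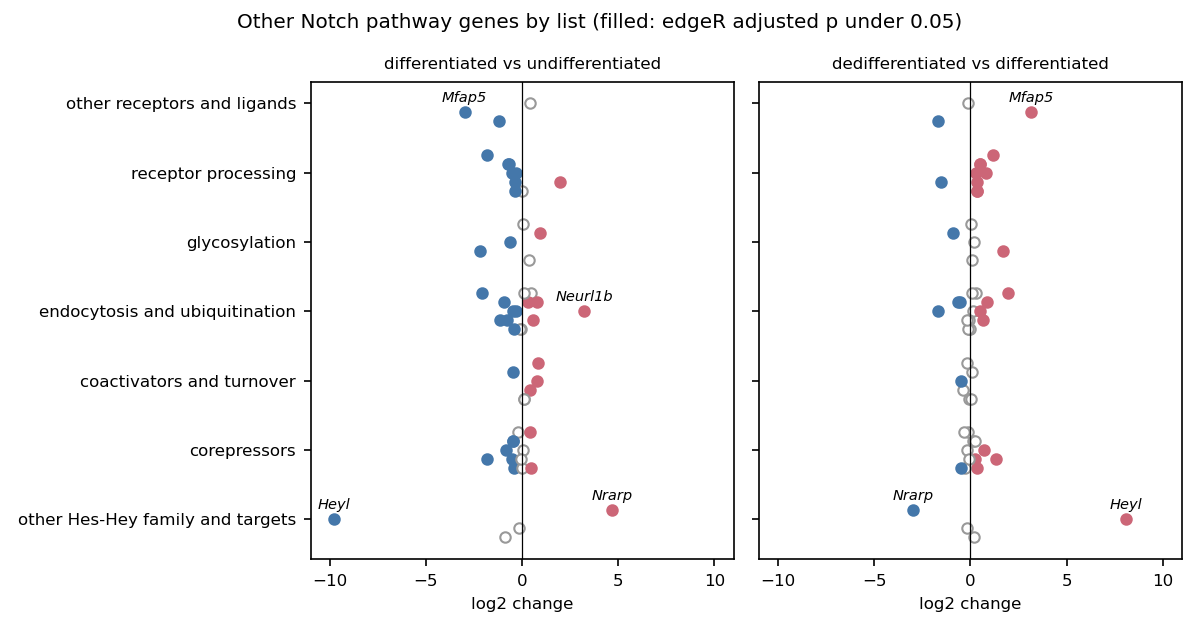
Log2 change of each tested gene of the 7 pathway lists under dbcAMP (left) and on withdrawal (right), red when called higher, blue when called lower and open when not called; vertical offsets within a list only separate points. *Heyl* and *Nrarp* lie on opposite sides in each panel and furthest out in the left one, and the fitted value of *Heyl* rests on 3 counts in differentiated cells.

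Genes with the pattern nearest to a member were sought over all tested genes, by the root mean square difference of centred log2 CPM over the 9 libraries, for the 3 members with the widest range of stage means. The genes nearest to *Hey2* were *Pragmin*, *Ets1* and *Kcnd3*, at 0.32, 0.36 and 0.36 log2 units. *Ets1*, a transcription factor, measured 624 ± 59.5, 65.7 ± 7.45 and 358 ± 23.3 CPM (SD, n = 3). The genes nearest to *Hey1* were *Nhlrc1*, *Pik3r3* and *RGD1562136*, at 0.15, 0.18 and 0.19 log2 units, and *Nhlrc1*, which encodes a ubiquitin ligase, measured 2.13 ± 0.426, 7.05 ± 0.686 and 5.75 ± 0.687 CPM (SD, n = 3). Those nearest to *Notch3* were *Sh2b2*, *Tspan12* and *Nefm*, at 0.21, 0.22 and 0.23 log2 units, with *Tspan12*, a tetraspanin gene, at 5.64 ± 1.34, 17.6 ± 2.01 and 5.88 ± 0.514 CPM (SD, n = 3). Among the members themselves, *Notch1* and *Notch3* were each other's nearest at 0.46 log2 units, as were *Notch2* and *Rbpj* at 0.21. *Notch2* and *Rbpj* had the smallest ranges of stage means among the tested members, at 0.38 and 0.26 log2 units. Genes that change little lie close by this measure, so the latter pair is not read as a shared pattern.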

How the data were processed

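Messenger RNA was measured in 9 libraries of cultured rat Schwann cells. The deposited values are estimated counts per gene, in a table named for salmon per the file headers and name, and FastQC, Trim Galore, cutadapt, STAR, HISAT2, SAMtools, Picard, bedtools, Salmon, DESeq2 1.26.0 and MultiQC are named in the submitters' processing notes. The genome build and annotation are not given in the sources used here. Of the values 1.15% were fractional, and counts were rounded before testing. Columns were matched to samples by library code and stage, and where replicate suffixes of the columns disagreed with the sample titles, replicate numbers came from the titles.

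Counts were tested in R 4.3.3 with edgeR 4.0.16: filterByExpr with a minimum count of 10, TMM scaling on totals over all rows, and a quasi-likelihood fit over all 9 libraries without covariates. The SE is the size of the log2 change divided by the square root of F, and 95% intervals of log2 changes are unadjusted. The fit was tested on simulated data. Centred log2 CPM used a prior count of 2. The alternatives were a replicate block, the sequencing project as a covariate, other scalings and filters, DESeq2 1.42.0, each library left out, and the 2 compared stages alone; the fit within 1 project was added after seeing the data. All members were named. From each pathway list up to 4 genes were named, those called with an absolute log2 change above 1, in order of p over the stages, or the 2 of smallest p where fewer than 2 passed. *Adam10*, *Numb*, *Notch4*, *Hes6*, *Bhlhe40*, *Maml3*, *Tle1*, *Tle2* and *Tle3* were named outside that rule, after their values were seen. Members and lists were chosen with earlier results of these data known. Promoters are from RefSeq for GRCr8, used for sequence alone. Vesicle miRNA and lncRNA tables were not used here.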

Additional observations from a re-analysis of the deposited data

How the results depend on the processing

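Of the tested members' log2 changes, none that was called changed sign in up to 20 alternatives each. For dedifferentiated against undifferentiated cells the 2 members called became 5 with the replicate block (*Notch1*, *Hes1* and *Hey2* added), 1 within the project of replicates 1 and 2, and 2 to 4 when a library was left out. For differentiated against undifferentiated cells the 6 called became 3 when at least 10 counts were required in every library, which leaves *Notch3* and *Hey2* untested, and 5 to 7 with a library left out. In the test over all stages the 5 called became 3 under that filter and 5 to 7 with a library left out, and on withdrawal the 3 became 3 to 4. For the pathway lists, an absolute log2 change above 1 left 11, 10 and 4 of the 38, 28 and 18 called in the 3 comparisons, the project of replicates 1 and 2 left 24, 17 and 5, and leaving out a library gave 31 to 40, 22 to 30 and 13 to 20. Shares of all genes called in these alternatives are not given here, so changes in the counts are not read as results about these genes. Scaling moved the median log2 change of all genes by at most 0.06.

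Equal replicate numbers are not said to share a culture. The mean correlation of deviations from the stage means was 0.175 over 9 same-numbered pairs, against -0.0837 for other pairs. Of the same-numbered pairs 7 of 9 were over 0.1, with a lowest value of 0.028. Deviations cancel out within a stage, so a positive mean for same-numbered pairs tends to make that of other pairs negative. The negative mean is therefore not separate evidence. A library of the same number was the best match for 8 of 9 libraries, which is a hint from the data and not from the design. The numbers were therefore not treated as pairing. In the first comparison the replicate block called 6 members, on withdrawal 3 and over all stages 7, and 39, 29 and 20 pathway genes. Low counts limit *Notch3*, *Hey1* and *Hey2*, and *Dll1* most.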
